A study of Mus musculus with 34 samples.

Results

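Hdac3, Ncor1, Tbl1xr1 and Gps2 encode core subunits of the HDAC3-NCoR corepressor complex, and the occupancy of these 4 genes by HDAC3, PROX1 and HNF4α was examined in mouse liver. The 4 members were taken by name from 22380 protein-coding genes, by a rule that used no measured value, although earlier results of these data were known. A peak was assigned to a gene when its centre lay in a window that ran from 50 kb upstream of the gene's start to 2 kb past its end. The windows of the 4 genes held 22 of the 36239 distinct peaks of the 3 deposited lists, 10 at Ncor1, 12 at Tbl1xr1, 0 at Hdac3 and 0 at Gps2.

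HDAC3 is a class I histone deacetylase whose catalytic activity depends on binding to the deacetylase-activating domain of a corepressor scaffold such as NCoR1. NCoR1 is the large scaffold that nuclear receptors bind when they repress transcription, TBL1XR1 and its paralogue TBL1X are WD40-repeat proteins that bind the amino terminus of the scaffold, and GPS2 is a small subunit held at the same end. In liver the complex is known for repressing lipid synthesis genes with the circadian receptor REV-ERBα. PROX1 is a homeodomain protein that works as a corepressor in hepatocytes, and HNF4α is the nuclear receptor that maintains hepatocyte identity.

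The peaks came from ChIP-seq of whole liver of male C57B/6 mice at 10 weeks of age, collected at zeitgeber time 10, the late light phase. HDAC3 and PROX1 were each precipitated from 3 control livers, and HNF4α from 2 livers of Hnf4α fl/fl mice without Cre. According to the methods, the floxed controls received an AAV8 virus that expressed a fluorescent protein from the TBG promoter, which is active in hepatocytes. A figure legend of the paper describes HNF4α peaks filtered on a hepatocyte-specific Hnf4α knockout. Whether the deposited HNF4α list was filtered in this way is not stated in the sources used here. The replicates of a factor were pooled before peaks were called, so each list stands for 1 pooled library, no spread between mice can be given, and no difference below has a test.

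The HDAC3 list held 21247 peaks and the PROX1 list 27423 peaks, all 200 bp wide and without a height, and the HNF4α list held 24253 peaks of 85 to 168 bp, each with a score whose scale was not given in the sources used here. Sequencing depth is unknown. A peak was called co-bound when HDAC3 and PROX1 shared identical coordinates, and with HNF4α when HNF4α peaks covered at least 50% of it. An HNF4α peak that touched no HDAC3 or PROX1 peak was called HNF4α alone. Whole liver holds several cell types, and the windows of 6 of 6 hepatocyte markers (Alb, Ttr and others) held a co-bound peak, against 3 of 5 endothelial, 1 of 3 cholangiocyte, 0 of 4 Kupffer cell and 0 of 3 stellate cell markers. Over all protein-coding genes the share was 38.4%.

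The sequences of 4 peaks at Ncor1 are given because they were the only ones of the 10 peaks in that window with an exact HNF4 core. They were read from the mm9 assembly on the plus strand, 5′ to 3′, and none touched an annotated exon. Capitals mark exact matches on either strand to any of 6 motifs, the HNF4 core (CAAAGNNCA), the C/EBP core (TTGNNCAA), the nuclear receptor half-site (AGGTCA), the RORE core (TAGGTCA, which contains the half-site), the E-box (CACGTG) and the ETS core (CCGGAAG).
Ncor1, 17.5 kb past the start, chr11:62254437-62254636: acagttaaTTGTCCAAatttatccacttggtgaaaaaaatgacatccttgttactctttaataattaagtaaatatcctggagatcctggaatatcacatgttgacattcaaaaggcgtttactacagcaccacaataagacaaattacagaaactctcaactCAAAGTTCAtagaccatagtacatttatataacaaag
Ncor1, 21.2 kb upstream, chr11:62293154-62293353: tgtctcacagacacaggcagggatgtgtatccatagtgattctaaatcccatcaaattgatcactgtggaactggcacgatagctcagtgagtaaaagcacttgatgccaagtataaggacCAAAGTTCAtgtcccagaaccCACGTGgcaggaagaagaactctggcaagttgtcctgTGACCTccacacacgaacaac
Ncor1, 106 kb past the start, chr11:62165564-62165763: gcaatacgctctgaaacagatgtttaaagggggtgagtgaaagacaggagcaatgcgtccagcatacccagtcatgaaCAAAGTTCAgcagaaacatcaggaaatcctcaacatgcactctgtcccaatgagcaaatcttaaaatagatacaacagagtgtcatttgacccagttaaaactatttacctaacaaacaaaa
Ncor1, 48.9 kb past the start, HNF4α alone, chr11:62223116-62223259: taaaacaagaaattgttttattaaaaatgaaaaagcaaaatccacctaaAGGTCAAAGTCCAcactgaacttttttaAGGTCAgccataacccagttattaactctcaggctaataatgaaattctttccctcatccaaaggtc

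The first 3 of these Ncor1 peaks were co-bound with HNF4α, and each held the same 9 letters, CAAAGTTCA. In the peak 21.2 kb upstream an E-box followed the core, and in the peak 17.5 kb past the start a C/EBP core lay near the opposite end. The HNF4α peak 48.9 kb past the start held a half-site that ran into the HNF4 core by sharing 2 bases with it, an arrangement known as a direct repeat with 1 spacer base, and a further half-site.

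At Tbl1xr1 the sequences of 3 peaks are shown for their contrast, namely the co-bound peak closest to the gene's start, the co-bound peak with an HNF4 core and the HDAC3-only peak. Build, strand and capitals are as above.
Tbl1xr1, 1.63 kb upstream, chr3:21973843-21974042: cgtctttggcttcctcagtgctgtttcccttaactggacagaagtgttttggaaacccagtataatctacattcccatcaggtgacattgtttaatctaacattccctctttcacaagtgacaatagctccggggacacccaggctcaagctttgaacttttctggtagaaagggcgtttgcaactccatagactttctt
Tbl1xr1, 6.32 kb past the start, chr3:21981798-21981997: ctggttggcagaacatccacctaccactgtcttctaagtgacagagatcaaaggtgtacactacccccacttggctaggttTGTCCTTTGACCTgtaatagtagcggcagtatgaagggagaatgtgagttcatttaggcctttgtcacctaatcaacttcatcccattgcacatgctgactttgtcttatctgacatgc
Tbl1xr1, 66.4 kb past the start, HDAC3-only, chr3:22041898-22042097: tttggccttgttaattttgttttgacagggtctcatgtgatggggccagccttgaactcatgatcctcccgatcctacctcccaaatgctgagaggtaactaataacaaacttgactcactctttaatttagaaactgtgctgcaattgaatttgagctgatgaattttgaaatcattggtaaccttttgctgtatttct

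Of these, only the peak 6.32 kb past the Tbl1xr1 start held capitals, an HNF4 core joined to a half-site on the minus strand in the same overlapping arrangement as at Ncor1.

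Ncor1 (ENSMUSG00000018501.10; chr11:62129928-62272043, minus strand, mm9) spans 142 kb, with 22 protein-coding transcripts from 16 start sites. Its window of 194.1 kb held 5 co-bound peaks, 4 with HNF4α and 1 without, together with 2 PROX1-only peaks, 0 HDAC3-only peaks and 3 peaks of HNF4α alone. For comparison, 38.4% of all protein-coding genes had at least 1 co-bound peak in their window, 31.1% at least 1 co-bound peak with HNF4α, 25.2% at least 1 PROX1-only peak, 7.40% at least 1 HDAC3-only peak and 33.7% at least 1 peak of HNF4α alone. Longer windows collect more peaks, so each gene was also set beside genes whose windows differed from its own by at most 20% in length. Among the 1207 genes with a window near that of Ncor1, 53.4% had a co-bound peak, the median was 1 co-bound peak, and 18.1% had 5 or more. With only 10 kb upstream in the window, 2 of the 5 co-bound peaks of Ncor1 remained.

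The co-bound peaks of Ncor1 fell into a group upstream of the gene and a pair inside it. The strongest HNF4α signal of the window, with a score of 89.5, lay at chr11:62254437-62254636 in intron 1, 17.5 kb past the start, and 93.2% of the HNF4α list had a score at or below it. That peak was 2520 bp from an internal annotated start of Ncor1. The other intragenic peak lay 106 kb past the start in intron 26, with a score of 39.6, and was 772 bp from an internal annotated start of a short Ncor1 transcript. Upstream, peaks with scores of 51.4 and 60.3 lay 21.2 and 36.4 kb before the start. Between them, 29.6 kb before the start, lay the co-bound peak without HNF4α, of which an HNF4α peak with a score of 26.9 covered 13.5%.

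The 6 peaks upstream of Ncor1 were all centred in introns of Pigl, a gene on the opposite strand whose annotated start overlaps that of Ncor1 and which encodes an enzyme of GPI anchor synthesis. For 5 of them the nearest protein-coding start was that of Ncor1, and for the PROX1-only peak 42.1 kb upstream it was that of Cenpv, a gene beyond Pigl. The starts of Ncor1 and Pigl lie so close together that nearness hardly separates these genes. That PROX1-only peak was 51.5% covered by an HNF4α peak with a score of 55.6, just past the 50% limit. The other PROX1-only peak, 28.6 kb upstream, had no HNF4α and lay 765 bases from the co-bound peak without HNF4α, and both held a RORE core on the minus strand.

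At the start of Ncor1 itself no HDAC3 or PROX1 peak was listed. The only peak there was HNF4α alone, 205 bp past the Ncor1 start and 124 bp from that of Pigl, with a score of 22.1, and only 5.44% of the list scored as low or lower. A similarly low HNF4α peak with a score of 21.2 lay 20.5 kb upstream, 543 bases from a co-bound peak. The last, 48.9 kb past the start in intron 6, scored 49.0.

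**Figure D1:**
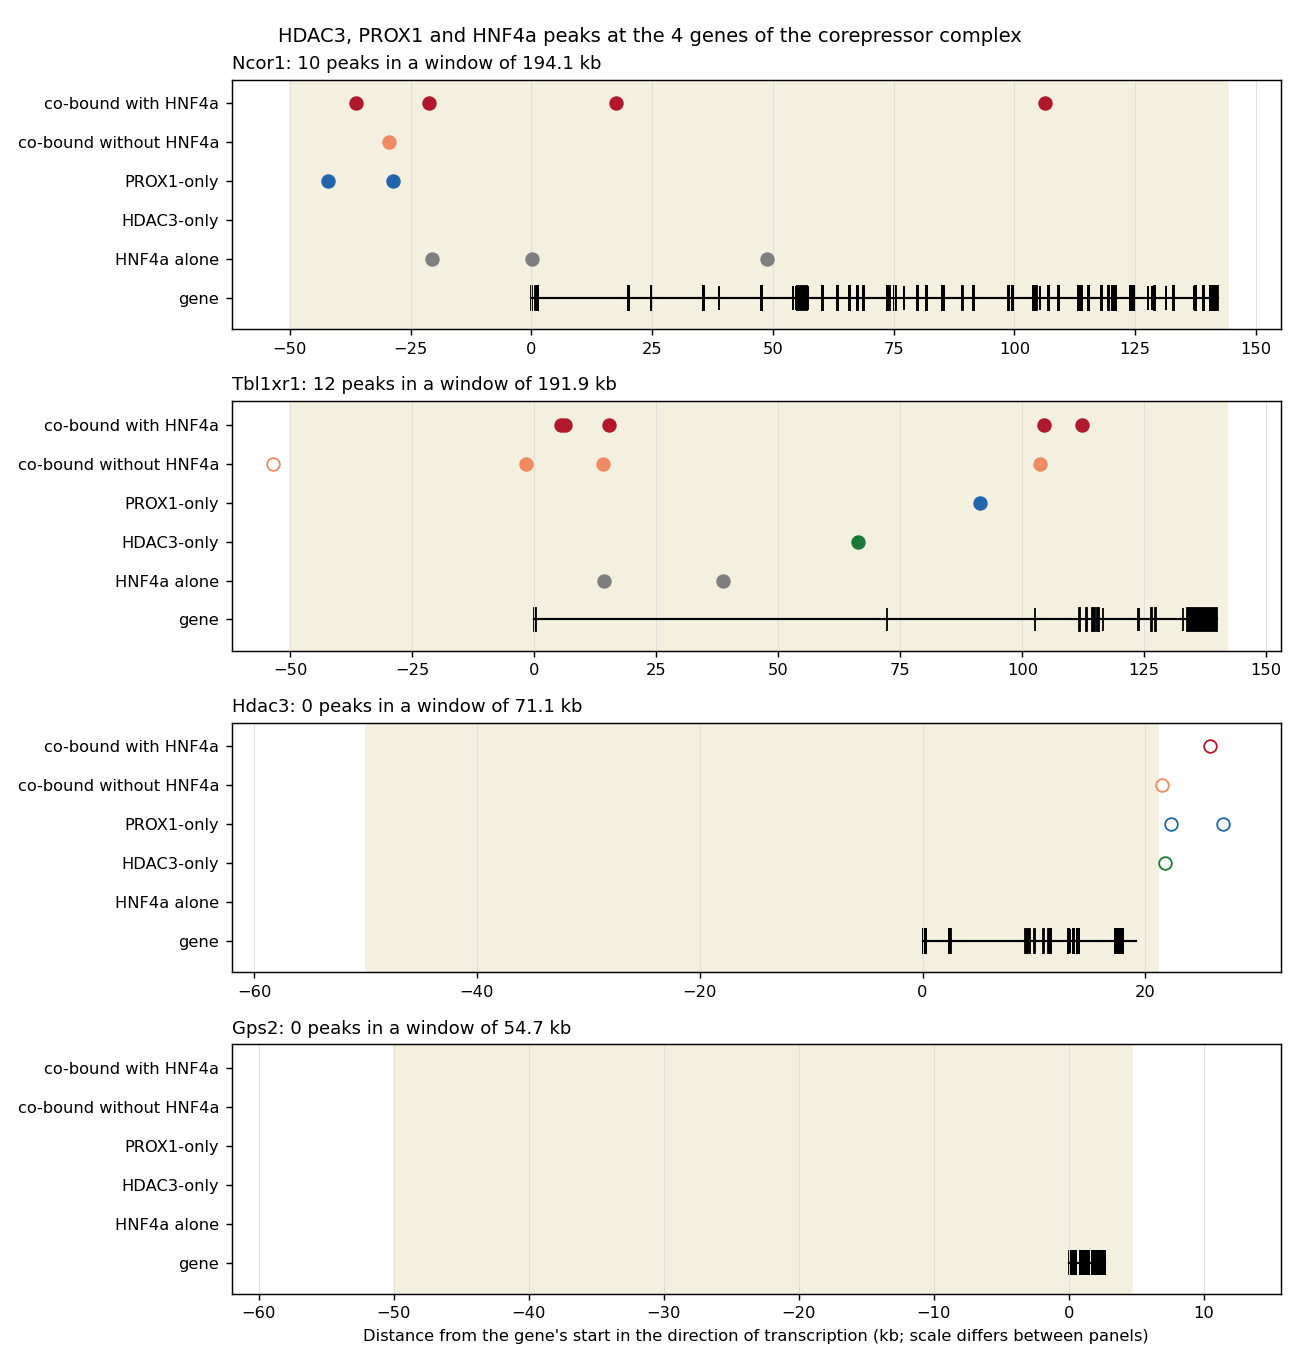
Peaks of the 3 lists at Ncor1, Tbl1xr1, Hdac3 and Gps2 by distance from the gene's start in kb, with 1 row for each class of peak and the exons of protein-coding transcripts as black boxes below. Filled circles are peaks inside the shaded window and open circles peaks up to 10 kb outside it, and a reader should see 10 filled circles at Ncor1, 12 at Tbl1xr1 and 0 at Hdac3 and Gps2, with 5 open circles just past the end of the Hdac3 window.

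Tbl1xr1 (ENSMUSG00000027630.8; chr3:21975574-22115516, plus strand, mm9) spans 140 kb from 1 annotated start, and no other protein-coding gene starts in its window of 191.9 kb. The window held 8 co-bound peaks, 5 with HNF4α and 3 without, and 1 PROX1-only peak, 1 HDAC3-only peak and 2 peaks of HNF4α alone. All 12 peaks had the Tbl1xr1 start as their nearest protein-coding start. Among 1240 genes with a window of similar length 54.0% had a co-bound peak, and 9.52% had 8 or more, and 2.86% of all protein-coding genes had 8 or more.

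The co-bound peaks of Tbl1xr1 lay just upstream of the start, in intron 1 and in introns 3 and 4. The co-bound peak closest to the start was intergenic, at chr3:21973843-21974042, 1.63 kb upstream, and no HNF4α peak covered any of it. Within intron 1, the co-bound peaks with HNF4α nearest the start lay 5.5 and 6.32 kb past it, with scores of 29.7 and 34.4. A co-bound peak without HNF4α lay 14.1 kb past the start, and an HNF4α peak with a score of 40.5 began 17 bases beyond its end.

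A further group lay in introns 3 and 4, more than 100 kb past the Tbl1xr1 start. It comprised a co-bound peak without HNF4α at 104 kb, a co-bound peak with HNF4α 741 bases further on with a score of 47.1, and another at 112 kb with a score of 47.6. The other peaks of a single factor lay farther from co-bound ones. HNF4α alone, with a score of 68.8, was found 38.7 kb past the start, HDAC3 without PROX1 at 66.4 kb, and PROX1 without HDAC3 at 91.3 kb.

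The rest of the upstream window of Tbl1xr1, from 1.63 to 50 kb before the start, held no peak, but more lay beyond its edge. Between 50 and 100 kb upstream lay 7 more peaks, all co-bound, 5 of them with HNF4α and with scores between 32.5 and 82.9, and the nearest protein-coding start to all 7 was that of Tbl1xr1. The share of protein-coding genes with as many in this range is not given, so whether 7 is unusual cannot be said. The peak just outside the edge was co-bound without HNF4α at 53.5 kb upstream. Upstream of Ncor1 the same range held 3 peaks, 1 of them co-bound, and none had Ncor1 as its nearest start.

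**Figure D2:**
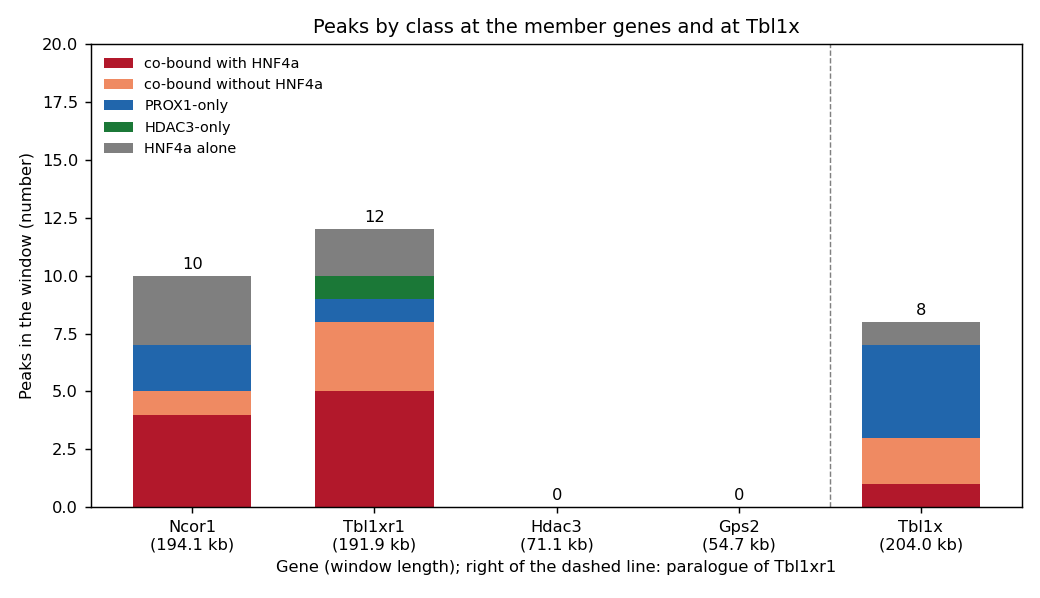
Number of peaks in the window of each gene by class, for the 4 member genes and, right of the dashed line, Tbl1x, the paralogue of Tbl1xr1, with the window length in kb under each name and the total above each bar. Each bar counts peaks of pooled libraries and has no error, and a reader should see totals of 10 and 12 at Ncor1 and Tbl1xr1, 0 at Hdac3 and Gps2, and 8 at Tbl1x.

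Hdac3 (ENSMUSG00000024454.8; chr18:38095498-38114642, minus strand, mm9) had no HDAC3, PROX1 or HNF4α peak in its window of 71.1 kb. The gene encodes the deacetylase itself, so HDAC3 was not called at the gene that makes it. Among all protein-coding genes 44.7% had no peak of the 3 lists in their window, and among the 9780 genes with a window of similar length 41.2% had none. The starts of 4 other protein-coding genes (Arap3, Diap1, Fchsd1 and Rell2) lay in the same window.

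The window of Hdac3 ended just short of a group of peaks. A co-bound peak without HNF4α lay 2.36 kb past the gene's end, which is 364 bp outside the window, followed by an HDAC3-only peak at 2.6 kb and a PROX1-only peak at 3.14 kb that HNF4α covered by 76.5%. A co-bound peak with HNF4α lay at 6.64 kb past the end, with a score of 44.8, and a PROX1-only peak at 7.83 kb. These 5 peaks were centred in Diap1, which encodes an actin-nucleating formin, and the start of Diap1 was the nearest to each. Measured from the start of Hdac3, the closest co-bound peak was 21.5 kb away, and 72.4% of protein-coding genes had their closest co-bound peak farther off. The median over genes was 68.2 kb.

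Gps2 (ENSMUSG00000023170.8; chr11:69727390-69730093, plus strand, mm9) is the shortest of the 4 genes, at 2.7 kb, and its window of 54.7 kb held no peak either. Among 10481 genes with a window of similar length 55.8% had none. The closest co-bound peak lay 124 kb upstream near Chrnb1, and the closest one with HNF4α 524 kb upstream near Cyb5d1. Closer to Gps2 lay an HNF4α peak without the other factors, 67.4 kb upstream and 94 bp from the start of Plscr3, with a score of 71.6, and an HDAC3-only peak 77.2 kb downstream of the Gps2 start and 64 bp from the start of Gabarap, an autophagy gene. The surroundings thus differed between the members without a peak, with co-bound peaks within 10 kb of the Hdac3 window and none within 10 kb of the Gps2 window.

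**Figure D3:**
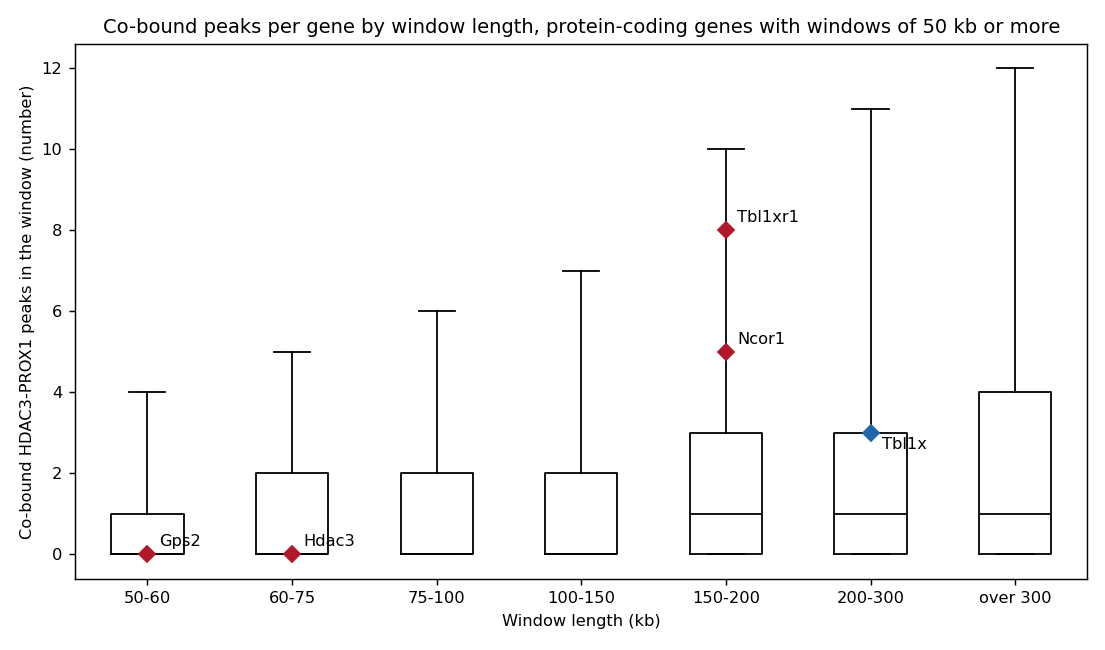
Co-bound peaks per gene by window length in kb for protein-coding genes with windows of 50 kb or more; boxes span the quartiles with the median as a line, and whiskers run from the 5th to the 95th percentile of genes. Red diamonds are the 4 members and the blue diamond is Tbl1x; Ncor1 with 5 and Tbl1xr1 with 8 lie above the box of their length class and under its upper whisker at 10, and Hdac3 and Gps2 lie at the median of 0.

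Over the 4 windows together, HNF4α covered 9 of 13 co-bound peaks, or 69.2% (95% Wilson interval 42.4 to 87.3%, counting error only). Over all 20039 co-bound peaks the share was 61.3% (60.6 to 62.0%), which lies inside the interval of the members. The share was 4 of 5 at Ncor1 (37.6 to 96.4%) and 5 of 8 at Tbl1xr1 (30.6 to 86.3%), and the genes were not tested against each other. All these intervals count each peak as independent, although some co-bound peaks of Tbl1xr1 lay less than 1 kb apart. The coverage of the 9 peaks ran from 58.0% to 84.0%. HNF4α peaks are 85 to 168 bp wide and cannot cover a 200 bp peak wholly, so a stricter limit also selects on their width. A limit of 75% left 23.1% of the 13 with HNF4α, whereas merging peaks closer than 1 kb put HNF4α at 90.0% of 10 co-bound regions. The 4 others were covered by 13.5% in a single case and by 0.0% in the rest.

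HNF4α scores at the co-bound member peaks spread over most of the list. The 9 scores ran from 29.7 to 89.5 with a median of 47.6, beside a median of 52.3 over all 12284 co-bound peaks with HNF4α and of 41.9 over the whole list. At Ncor1 the median was 55.8 over 4 peaks and at Tbl1xr1 47.1 over 5 peaks (29.7 to 60.3), and the values of the genes overlapped. The 5 peaks of HNF4α alone had scores from 21.2 to 68.8 with a median of 40.5, beside 32.5 over all 7608 such peaks.

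**Figure D4:**
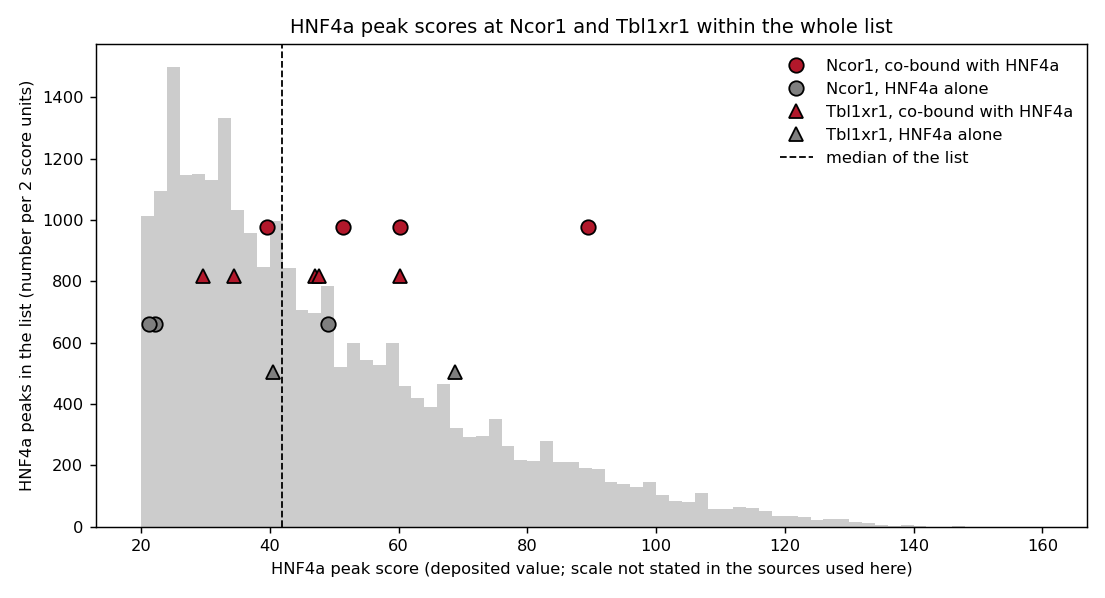
Scores of HNF4α peaks in the windows of Ncor1 (circles) and Tbl1xr1 (triangles), drawn at arbitrary heights over the histogram of all 24253 scores in the deposited list (x axis, score; y axis, peaks per bin of 2 score units). Red symbols are HNF4α peaks at co-bound sites and grey symbols HNF4α alone; the Ncor1 peak at 89.5 stands highest, and the dashed line marks the list's median of 41.9.

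Most co-bound peaks at the members lay in introns. At Ncor1 and Tbl1xr1 together, 12 of 13 co-bound peaks were intronic (92.3%), 1 was intergenic and 0 were exonic, beside 52.1% intronic, 43.2% intergenic and 4.67% exonic over all co-bound peaks. Those upstream of Ncor1 lay in introns of Pigl and not of a member gene. The rule that defines the windows favours introns at genes as long as Ncor1 and Tbl1xr1, so these shares are given as a description. Only the Ncor1 peak 106 kb past the start, near the internal start of a short transcript, lay within 1 kb of a protein-coding start. Over all co-bound peaks the share was 7.91%, and the annotation flags that short transcript as lacking its coding start. Guanine and cytosine made up 31.5 to 51.0% of the bases of the 13 peaks, with a median of 44.0%, beside a median of 46.5% over all co-bound peaks.

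Exact HNF4 cores occurred in 4 of the 13 co-bound member peaks, beside 18.1% of all co-bound peaks. All 4 were among the 9 peaks with HNF4α, 3 at Ncor1 and 1 at Tbl1xr1. Over all co-bound peaks, 23.9% of those with HNF4α and 8.79% of those without held the core. The version CAAAGTTCA, found in 3 of 5 co-bound peaks of Ncor1 and 0 of 8 of Tbl1xr1, occurred in 2.44% of all co-bound peaks and 3.47% of those with HNF4α. The half-site joined to the core occurred in 1 co-bound peak of Tbl1xr1 and 1 HNF4α peak of Ncor1. Its share was 0.479% of all co-bound peaks, 0.668% of those with HNF4α and 1.04% of HNF4α peaks alone. These 2 patterns were picked after the matches had been seen.

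Of the other motifs, the nuclear receptor half-site occurred in 5 of the 13 peaks (34.6% of all co-bound peaks) and the C/EBP core in 2 (14.7%). The RORE core occurred in 1 (5.04%), at Ncor1 29.6 kb upstream, the E-box in 1 (4.01%) and the ETS core in 0 (0.873%). Among the 1585 co-bound peaks within 1 kb of a protein-coding start the shares were 29.9% for the half-site, 12.9% for the C/EBP core, 4.98% for the RORE core, 4.73% for the E-box, 1.77% for the ETS core and 16.0% for the HNF4 core. A match is a string of letters and not evidence of binding.

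Tbl1x, the paralogue of Tbl1xr1, had 3 co-bound peaks in 204.0 kb, 1 with HNF4α and 2 without, 4 PROX1-only peaks and 1 peak of HNF4α alone. Its co-bound peak without HNF4α nearest the start lay 1.64 kb upstream, close to the 1.63 kb found at Tbl1xr1. Over all protein-coding genes, 1.97% had a co-bound peak centred between 1 and 2 kb upstream of the start, a range chosen after these positions were seen.

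Each of 15 genes of the other class I deacetylase complexes had fewer co-bound peaks than Ncor1 and Tbl1xr1. Their median window was 80.3 kb, beside 194.1 and 191.9 kb for Ncor1 and Tbl1xr1, so these counts are not on equal terms. Of the 15, 4 had a co-bound peak and 6 had no peak of any list, beside 38.4% and 44.7% of all protein-coding genes. Hdac8, with the longest window of that list at 272.7 kb, was among the 6. Rcor1, a subunit of the CoREST complex, had the most with 4 co-bound peaks in 128.6 kb, and the class I deacetylase genes Hdac1, Hdac2 and Hdac8 had 0 co-bound peaks each, as had Hdac3. Of 12 genes of DNA-binding partners, 11 had a co-bound peak, with a median of 6.5 in a median window of 100 kb. Among them Thrb, a thyroid hormone receptor, had the most with 17, in the longest window of that list at 429.1 kb, and Nr1h3, which encodes LXRα, had 0 in 70.8 kb.

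By the sum of differences over the 5 classes of peaks, the closest of 28 listed genes, Tbl1x included, to Ncor1 was Rara, which differed by 3 peaks, followed by Bcl6 and Prox1 with 4 each. For Tbl1xr1 they were Rara with 3, Bcl6 with 4 and Rxra with 5. Hdac3 and Gps2 shared their count of 0 in every class with 6 of the 28 genes, among them Hdac2, Hdac8 and Kdm1a. The measure counts peaks in windows of unequal length.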

How the data were processed

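ChIP-seq libraries of mouse liver were analysed as 3 deposited peak lists, for HDAC3, PROX1 and HNF4α. Per the methods, the authors' reads were mapped to the mm9 assembly (Bowtie 0.12.7), and they removed duplicates, pooled replicates and called peaks with HOMER against IgG, keeping peaks over limits of enrichment and normalised read density. The deposited HDAC3 and PROX1 lists give coordinates alone, in blocks divided by 3 empty lines that no source explains, and the HNF4α list adds a score by the authors. Pooling leaves no replicates, and a site under the authors' limits can be missing from a list, so a window without a peak shows only that none passed.

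Peaks were placed on GENCODE vM1 genes of the same assembly, and 0 peaks ran past a chromosome's end. Peak sequences were read from that assembly with pysam 0.24.0 and samtools 1.23.1, and motifs were matched exactly on both strands. Counts, shares and Wilson intervals were computed in Python 3.11.15 with numpy 2.4.6 and pandas 2.3.3. Emr1, the older symbol of Adgre1, was matched through RefSeq synonyms. On simulated peaks, 5000 of 5000 were classed as made. Named genes were the 4 members, the paralogue Tbl1x, the highest and lowest of each list, the 3 listed genes most like each member, and neighbours with the nearest start to a peak. Members, lists and alternatives were chosen with earlier results of these data known. A listed gene and a single Tbl1xr1 peak, which stays in the counts and ranges, are not reported here.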

Additional observations from a re-analysis of the deposited data

How the results depend on the processing

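No paired analysis was possible because the lists pool the replicates, and no replicate could be left out. Of 188 values recomputed under alternatives, 145 stayed within 1.5 times the reported count or inside its interval, and 43 moved. Many of the 145 were counts at Hdac3 and Gps2 that began at 0. A shorter upstream window or a stricter HNF4α limit could only return 0 there, so the tally does not measure stability. With 10 kb upstream, co-bound peaks at Ncor1 numbered 2, both with HNF4α, beside 0 PROX1-only peaks. With 100 kb upstream, co-bound peaks at Tbl1xr1 numbered 15 (10 with HNF4α), and HNF4α alone had 1 peak at Hdac3 and 2 at Gps2. These windows gave 25.6% and 48.8% of protein-coding genes with a co-bound peak, and the share of genes with 15 or more is not given. With peaks closer than 1 kb merged, Ncor1 had 1 PROX1-only region, Tbl1xr1 had 5 co-bound regions and 1 of HNF4α alone, and HNF4α lay at 90.0% of co-bound regions. With only peaks nearest to the gene's own start, Ncor1 had 1 PROX1-only peak. With 75% coverage, co-bound peaks with HNF4α fell to 2 at Ncor1 and 1 at Tbl1xr1, or 23.1%. For merging and for 75% coverage no share over all co-bound peaks is given. With HNF4α scores above the median, Tbl1xr1 had 3. A window to 10 kb past the gene end, chosen after the data were seen, gave Hdac3 2 co-bound peaks (1 with HNF4α), 2 PROX1-only peaks and 1 HDAC3-only peak. Hdac3 and Gps2 had 0 co-bound peaks under every other alternative run.

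With 1 mismatch allowed, 10 of the 13 co-bound member peaks held the HNF4 core (79.2% of all co-bound peaks), 12 the C/EBP core (79.2%), 12 the half-site (96.1%), 8 the RORE core (58.2%), 6 the E-box (48.8%) and 5 the ETS core (29.1%). In the central 100 bp, the HNF4 core was left in 3 of the 13 peaks (11.1% of all co-bound peaks), the C/EBP core in 1 (9.99%) and the half-site in 1 (21.7%). The RORE core was left there in 0 (2.92%), the E-box in 1 (1.93%) and the ETS core in 0 (0.369%).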
